A study of Mus musculus with 9 samples.

Results

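The 10 genes described here, Dusp1, Dusp2, Dusp4, Dusp5, Dusp6, Dusp7, Dusp8, Dusp9, Dusp10 and Dusp16, encode the dual-specificity MAP kinase phosphatases. They were taken by symbol from a table of read counts for 38720 genes, and all 10 have a row in it. The 20 libraries, in 6 groups, were made from polyadenylated RNA of thymic epithelial cells (TEC) of mice. The sort took CD45-, EpCAM+, MHCII+ cells and split them into cortical TEC (cTEC; Ly51+, UEA1-) and medullary TEC (mTEC; Ly51-, UEA1+). The transgenic set consists of nude mice (nu/nu), whose own Foxn1 is not functional, that carry a Foxn1 BAC transgene encoding FLAG-tagged protein (wt*). Heterozygous animals (wt*/-::nu/nu) gave 3 cTEC and 2 mTEC libraries, and homozygous animals (wt*/wt*::nu/nu) likewise gave 3 cTEC and 2 mTEC libraries. The deletion set holds cTEC of mice that are homozygous for both beta5t-rtTA and floxed Foxn1 (fl/fl). Deleted animals carried in addition 1 copy of tetO-Cre, which removes exons 7 and 8 of Foxn1 when doxycycline is given, and control animals lacked tetO-Cre. Both kinds of animal received doxycycline, and their 5 libraries per group were made 72 hours later. In this set Cre depends on rtTA made from the beta5t locus, which is active in cortical epithelium. No ages were stated, and nothing in the labels says that libraries of a group came from separate animals. P-values therefore measure only the spread between these libraries, which may be technical.

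MAP kinases (ERK, JNK and p38) are switched on by phosphorylation of a threonine and a tyrosine in their activation loop, and this family of phosphatases removes both phosphates. Several members are themselves switched on by the kinase pathways they inactivate, so their transcripts act as negative feedback. Foxn1 is the forkhead transcription factor on which the thymic epithelium depends, and cTEC and mTEC respond to FGF and EGF family ligands whose receptors signal through ERK. By location and preferred kinase the members fall into 3 groups. DUSP1, DUSP2, DUSP4 and DUSP5 are inducible nuclear enzymes, of which DUSP5 prefers ERK. DUSP6, DUSP7 and DUSP9 are cytoplasmic and prefer ERK. DUSP8, DUSP10 and DUSP16 prefer JNK and p38.

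RefSeq places the 10 genes on 10 different chromosomes of build GRCm38.p6. Promoter stretches are shown for the members that hold a palindromic cAMP response element (CRE) or a CArG box. These are the sites of CREB-type factors and of serum response factor. The members shown, Dusp1, Dusp5 and Dusp8, were chosen because they gave the largest called dose differences in cTEC among members with a promoter window. The Dusp5 call was not kept in every alternative fit. Since the choice used the dose results, the part of these sites in the dose differences was not tested. Promoter windows were at hand for 8 of the 10 members, without Dusp4 and Dusp9, and the 250 bases before each RefSeq start were searched on both strands. The stretches below run 5′ to 3′ on the strand of the gene, with the motif and 20 bases on each side, and capitals mark the motif.
Dusp1, chr17:26508588-26508635, minus strand: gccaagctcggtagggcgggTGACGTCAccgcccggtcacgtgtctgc
Dusp8, chr7:142095320-142095411, minus strand: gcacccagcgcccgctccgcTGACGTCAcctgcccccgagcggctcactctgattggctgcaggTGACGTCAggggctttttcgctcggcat
Dusp5, chr19:53529043-53529102, plus strand: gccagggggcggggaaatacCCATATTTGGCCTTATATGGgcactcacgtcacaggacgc
The CRE letters TGACGTCA lie 143 to 136 bases before the start of Dusp1. Dusp8 holds them at 107 to 100 and again at 63 to 56 bases before the start used. That Dusp8 stretch lies within the RefSeq span of the gene (142079487 to 142095907), since another start lies farther upstream. These letters occur in 1.55% of all 32851 RefSeq windows of this length, and 0.0304% hold them at least 2 times. The first of the adjoining CArG boxes of Dusp5 starts 82 bases before the start, and 1.47% of windows hold a CArG box. Shorter motifs were less selective. The partial CRE TGACG, which is contained in the full CRE, is present in Dusp1, Dusp5, Dusp8 and Dusp16 and in 17.8% of windows. The FOXN1 core GACGC is present in Dusp5, Dusp6, Dusp7, Dusp10 and Dusp16 and in 22.6% of windows. Neither the AP-1 letters TGANTCA (6.75% of windows) nor the ETS letters CCGGAA (12% of windows) occur in any of the 8 members' windows. A match describes the letters in the window and does not show that a factor binds there.

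Libraries held 20719630 to 22372633 counts. Levels are given as CPM, the counts of a gene scaled to the total of its library, and since exon lengths were not at hand, CPM is compared for 1 gene between libraries and never between genes. Aire was at 999 to 1188 CPM in mTEC and at 16.3 CPM or less in every cTEC library. Ly75, Enpep and Prss16 were on the cortical side in both transgenic genotypes. Prss16 was lower in deleted than in control cTEC by -3.40 ± 0.41 (log2, SE; adjusted p = 0.00876). Psmb11, which encodes the cortical proteasome subunit beta5t, was at 961 to 1053 CPM in homozygous cTEC but at 0.410 to 1.79 CPM in the control libraries of the deletion set, so this cortical marker is near 0 in both of that set's groups. Animals of both these groups were homozygous for beta5t-rtTA, and the part of this genotype in the low Psmb11 was not tested. Foxn1 was at 454 ± 91.6 CPM in control and 434 ± 81.1 CPM in deleted cTEC (mean ± SD, n = 5 each). Its count covers the whole gene and does not check the removal of exons 7 and 8. In the transgenic set Foxn1 was at 1365 ± 103 CPM in homozygous (SD, n = 3) and 1144 to 1210 CPM in heterozygous cTEC (n = 3), and at 318 ± 15.5 and 495 ± 9.83 CPM in homozygous and heterozygous mTEC (SD, n = 2 each). In mTEC Foxn1 was thus higher in heterozygous animals, by 0.66 ± 0.08 (log2, SE; edgeR quasi-likelihood test, adjusted p = 1.68e-05). Dose therefore means transgene copies in what follows, not the level of the Foxn1 transcript.

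**Figure D1:**
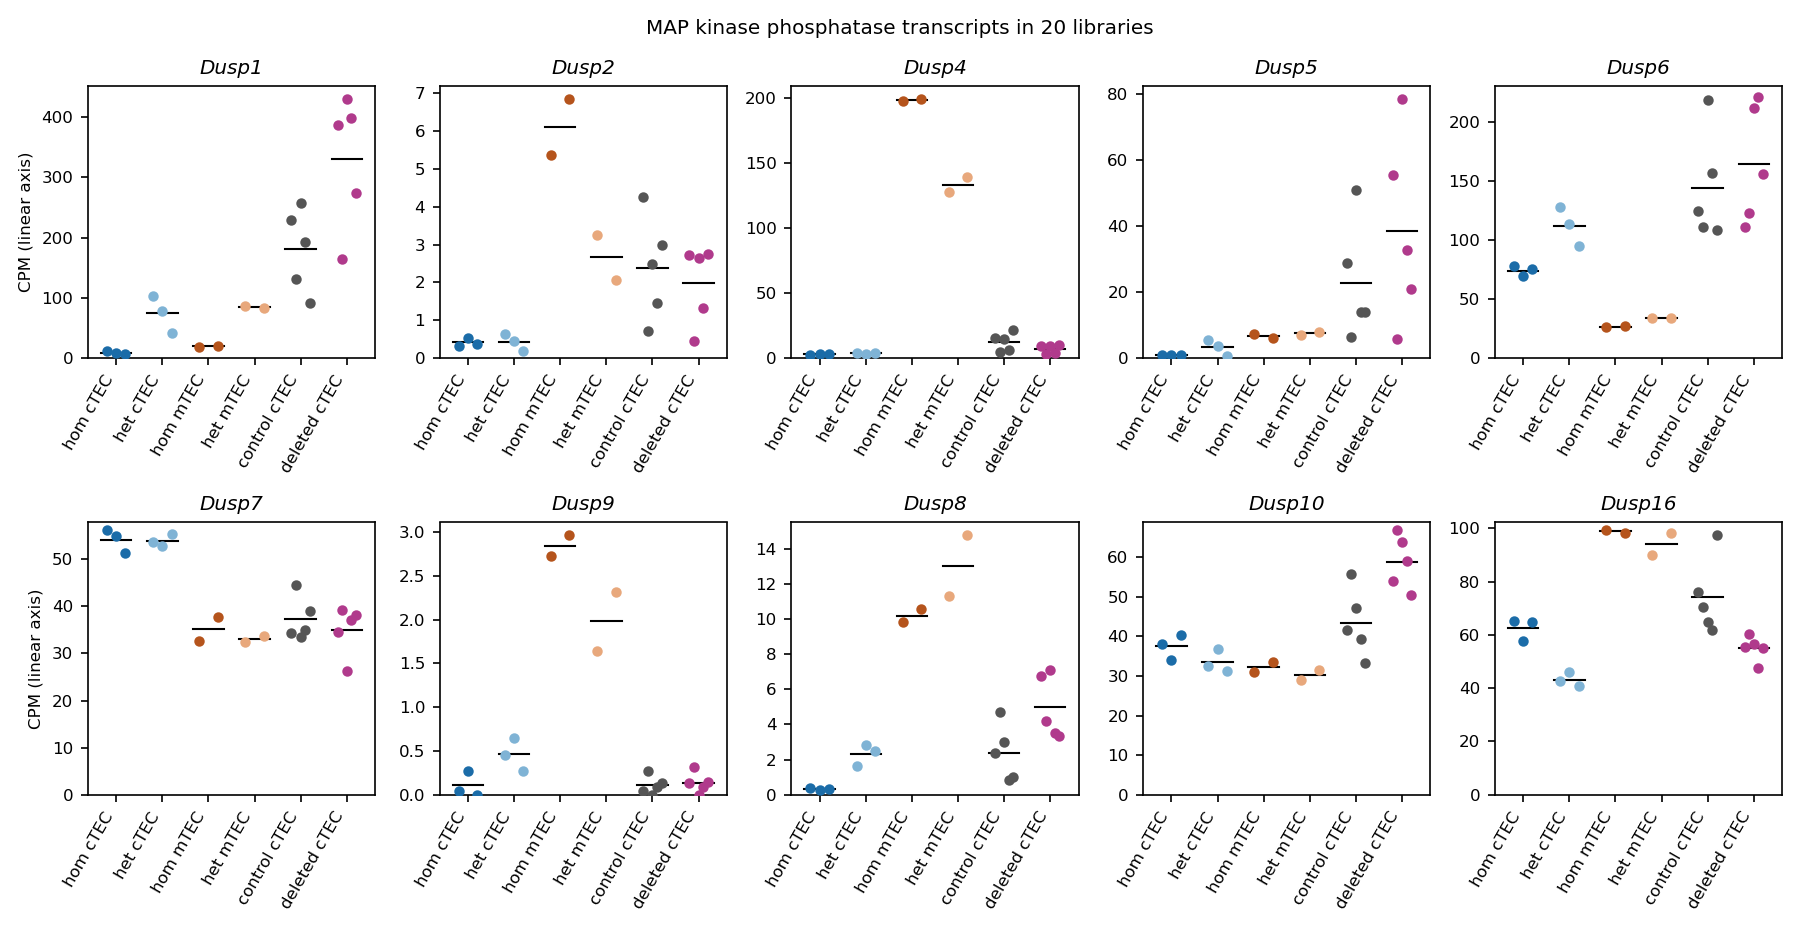
CPM of each MAP kinase phosphatase transcript (vertical axis, linear, own scale for each gene) in the 20 libraries, grouped along the horizontal axis; a point is a library and a bar is the group mean. Dusp4 stands near 130 to 200 CPM in mTEC and below 22 CPM in every cTEC library, and Dusp1 is above 90 CPM in all libraries of the deletion set and below 13 CPM in homozygous cTEC.

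Among the inducible nuclear members, Dusp1 had a mean of 9.21 CPM in homozygous cTEC, 19.6 in homozygous mTEC, 74.5 in heterozygous cTEC, 85.5 in heterozygous mTEC, 181 in control cTEC and 331 in deleted cTEC. Of the neighbours in that order, heterozygous cTEC and heterozygous mTEC overlap in range, as do control and deleted cTEC. Dusp5 ran from 0.992 CPM in homozygous cTEC over 3.42 in heterozygous cTEC, 6.74 in homozygous mTEC and 7.57 in heterozygous mTEC to 22.8 in control and 38.6 in deleted cTEC, and of these neighbours only heterozygous cTEC and homozygous mTEC do not overlap. Across all 20 libraries Dusp1 and Dusp5 had a Pearson r of 0.86 on log2(CPM + 1), given as a description, since libraries of a group share genotype and preparation. Dusp2 and Dusp4 followed another order with r = 0.82 between them, and both were highest in homozygous mTEC. Dusp4 averaged 3.05 CPM in homozygous and 3.72 in heterozygous cTEC, 7.07 in deleted and 12.5 in control cTEC, 133 in heterozygous mTEC and 198 in homozygous mTEC, with overlap between neighbours among the cTEC groups only. Dusp2 was a low transcript, with 0.417 and 0.429 CPM in the cTEC groups of the transgenic set, 1.98 and 2.38 CPM in deleted and control cTEC, 2.66 CPM in heterozygous and 6.11 CPM in homozygous mTEC, and the ranges of neighbours overlap except between the mTEC groups.

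The cytoplasmic members did not share an order. Dusp6, a feedback inhibitor of ERK, averaged 26.8 and 33.7 CPM in homozygous and heterozygous mTEC, 74.1 and 112 CPM in homozygous and heterozygous cTEC, and 144 and 164 CPM in control and deleted cTEC. Dusp7 was the steadiest member, between 26.3 and 56.3 CPM in every library, with its highest values in the transgenic cTEC. Dusp9 gave 0 to 7 counts per library in the deletion set and 0 to 14 in transgenic cTEC, against 35 to 64 in mTEC, and 3 cTEC libraries had no count for it. A count of 0 at these depths allows up to 3 counts, and this limit covers counting error only. Of the members that prefer JNK and p38, Dusp8 ran from 0.326 CPM in homozygous cTEC to 13.0 CPM in heterozygous mTEC. Dusp10 stayed between 29.1 and 66.9 CPM, highest in deleted cTEC. Dusp16 ranged from 40.9 to 99.3 CPM, lowest in heterozygous cTEC and highest in homozygous mTEC.

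Comparing the compartments within a transgenic genotype asks which members differ between cortex and medulla in that set. In homozygous transgenic animals 7 of 10 members were higher in mTEC (43.2% of the 19222 genes tested were) and 3 were lower (39.4%). Since 82.6% of all genes tested were called in 1 direction or the other, the sizes are more informative here than the calls. The members' median log2 difference, mTEC minus cTEC, was 1.68, against 0.04 over all genes tested. The CPM ranges of the groups did not overlap for any of the 10 members, as for 85.5% of all genes.

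Dusp4 had by far the widest separation of the members. Its 3 homozygous cTEC libraries held 2.71, 3.54 and 2.90 CPM and the 2 homozygous mTEC libraries 197 and 199 CPM. The heterozygous libraries held 3.88, 3.52 and 3.76 CPM in cTEC and 128 and 139 CPM in mTEC. No cTEC library of either genotype came near an mTEC library. The fitted difference was 5.78 ± 0.09 (log2, SE) in homozygous animals, or 54.8-fold (edgeR quasi-likelihood test, adjusted p = 2.71e-14), and 5.07 ± 0.09 in heterozygous animals, or 33.7-fold (adjusted p = 7.79e-14).

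Dusp8 and Dusp9 followed. Dusp8 was at 0.374, 0.272 and 0.333 CPM in homozygous cTEC and at 9.82 and 10.6 CPM in homozygous mTEC. In heterozygous animals it was at 1.64, 2.83 and 2.48 CPM in cTEC and at 11.3 and 14.8 CPM in mTEC. The mTEC levels of the genotypes lie close together, and the cTEC levels do not. The difference was 4.70 ± 0.26 (log2, SE; 26-fold, adjusted p = 1.38e-09) in homozygous and 2.41 ± 0.19 (5.30-fold, adjusted p = 7.02e-08) in heterozygous animals. Dusp9 had 1, 6 and 0 counts in homozygous cTEC and 59 and 64 in homozygous mTEC, and 10, 14 and 6 counts in heterozygous cTEC against 35 and 49 in heterozygous mTEC. Its difference was 4.41 ± 0.53 (adjusted p = 2.94e-06) and 2.01 ± 0.42 (adjusted p = 0.000727). With so few cortical counts the homozygous value leans on single libraries, and it ranged from 3.85 to 6.39 when each was left out, the highest without homozygous cTEC library 2. Dusp9 passed the filter on low counts, which was applied to the 4 transgenic groups together, through its mTEC libraries. All comparisons of Dusp9 in the transgenic set depend on this.

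Dusp2 and Dusp5 were also higher in mTEC within the transgenic set. Against the deletion set this did not hold for Dusp5, which averaged 22.8 CPM in control and 38.6 CPM in deleted cTEC. Both means lie above those of homozygous and heterozygous mTEC (6.74 and 7.57 CPM). Dusp2 in control cTEC, at 0.729 to 4.25 CPM, overlapped heterozygous mTEC, at 2.08 to 3.25 CPM. Dusp2 differed by 3.61 ± 0.33 (adjusted p = 2.17e-07) in homozygous and 2.53 ± 0.37 (adjusted p = 3.32e-05) in heterozygous animals. Dusp5 differed by 2.51 ± 0.50 (adjusted p = 0.000362) in homozygous animals. In heterozygous animals Dusp5 stood at 5.67, 3.75 and 0.826 CPM in cTEC and at 7.11 and 8.02 CPM in mTEC, and its difference of 1.06 ± 0.41 (adjusted p = 0.0345) leans on the low value of cTEC library 3. The call was lost without the filter on low counts, without either heterozygous mTEC library and with only these 2 groups in the fit, and the difference was 0.66 without heterozygous cTEC library 3 and 1.65 without library 1. Dusp16 was higher in mTEC by 0.42 ± 0.07 (adjusted p = 9.15e-05) in homozygous and 1.04 ± 0.07 (adjusted p = 2e-08) in heterozygous animals. Dusp1 was higher in homozygous mTEC by 0.85 ± 0.33 (adjusted p = 0.0309), a call lost without the filter and in 4 of 5 fits that left out a library, and in heterozygous animals it gave 0.11 ± 0.27 (adjusted p = 0.729).

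Dusp6 and Dusp7 were higher in cTEC than in mTEC of both transgenic genotypes. Dusp6 was at 77.6, 69.2 and 75.6 CPM in homozygous cTEC and 26.4 and 27.2 CPM in homozygous mTEC. It was at 128, 113 and 95.2 CPM in heterozygous cTEC and 33.7 and 33.7 CPM in heterozygous mTEC. Every cTEC library was above every mTEC library. The difference was -1.71 ± 0.11 (3.27-fold lower in mTEC, adjusted p = 7.85e-09) and -1.82 ± 0.11 (3.53-fold lower, adjusted p = 5.92e-09). Dusp7 differed by -0.86 ± 0.08 (adjusted p = 1.43e-07) and -0.79 ± 0.08 (adjusted p = 6.22e-07). In cTEC of the deletion set, however, Dusp7 lay at 26.3 to 44.5 CPM. That range holds the mTEC libraries, at 32.4 to 37.7 CPM. Dusp10 was lower in homozygous mTEC by -0.46 ± 0.09 (adjusted p = 0.000352). In heterozygous animals it gave -0.23 ± 0.09 (adjusted p = 0.0386), a call lost under every alternative run. In these animals 6 of 10 members were called higher in mTEC (40.4% of genes tested) and 3 lower (31.6%), with a median of 1.05 against 0.09 over all genes, and the ranges did not overlap for 8 of the 10 (81.6% of all genes).

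**Figure D2:**
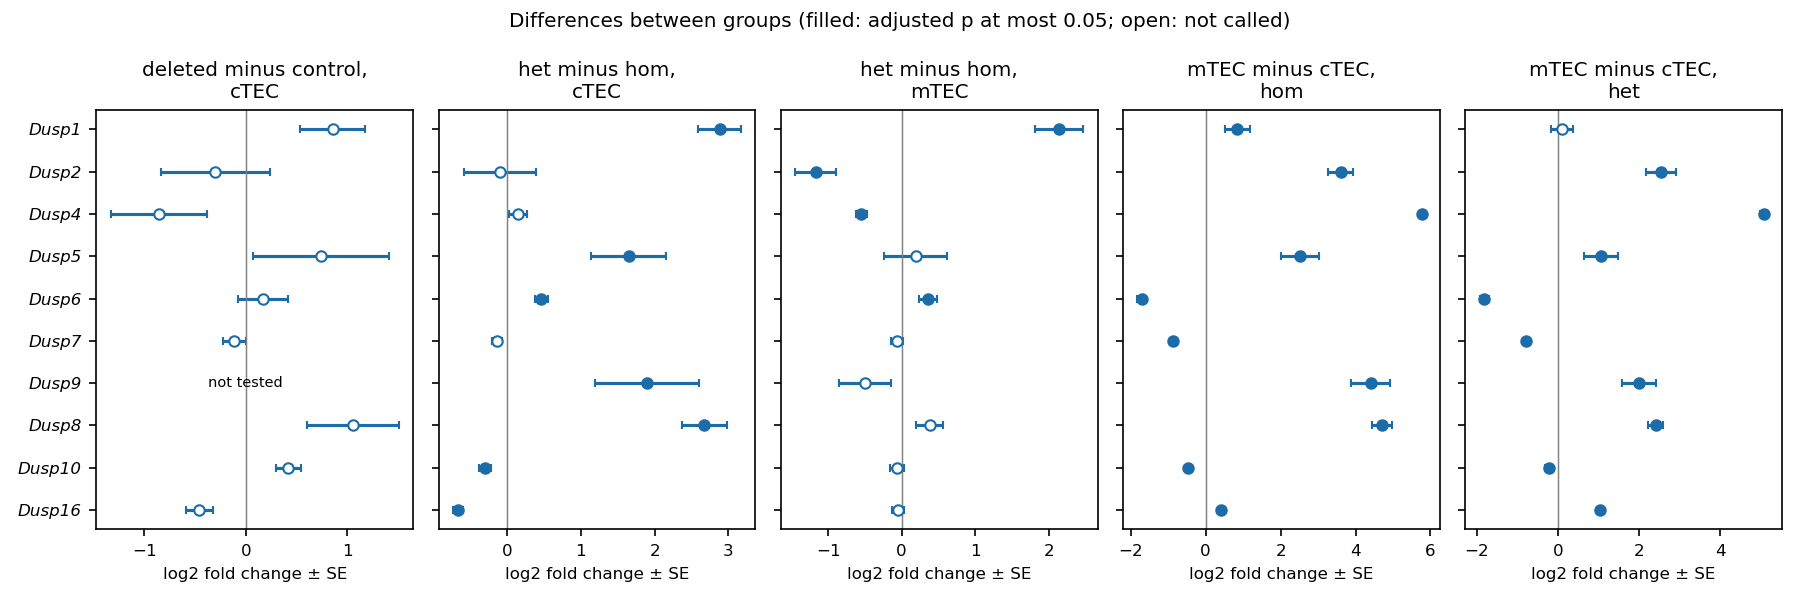
Fitted log2 fold change ± SE of each member in the 5 comparisons between groups (horizontal axes differ in scale); filled points have an adjusted p of at most 0.05 in edgeR's quasi-likelihood test and open points do not. Dusp4 lies at 5.78 and 5.07 in the compartment panels, Dusp1 at 2.88 and 2.15 in the dose panels, and all 9 members tested are open in the deletion panel.

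Transcripts used as markers of other cells stood at unequal levels in the compared sorts. Markers of macrophages and dendritic cells summed to 529 to 624 CPM in homozygous mTEC, 107 to 110 in heterozygous mTEC and 3.95 to 8.53 in transgenic cTEC, and 8 of 8 tested were higher in homozygous mTEC than in homozygous cTEC. B cell markers summed to 40.0 to 46.9 CPM, 18.9 to 22 CPM and 0.232 to 0.868 CPM in the same groups, with Cd22 and Pax5 at 0 in heterozygous cTEC. Endothelial markers summed to 80.7 to 86.5 CPM in homozygous mTEC against 5.14 to 7.76 CPM in homozygous cTEC (5 of 7 tested higher), and to 57.2 to 90.2 against 3.53 to 4.98 CPM in heterozygous animals (7 of 7 higher). Erythroid markers, 3 of 3 tested, were higher in mTEC of both genotypes, at 4.25 to 12.8 CPM in mTEC and 0.748 CPM or less in transgenic cTEC. Thymocyte markers were higher in mTEC for 11 of 15 genes in heterozygous animals, and for 6 of 15, with 4 lower, in homozygous animals. Whether these transcripts came from other cells or from the TEC themselves was not tested. The part of such cells in the compartment differences of Dusp2, Dusp4, Dusp5, Dusp8, Dusp9 and Dusp16 was not tested. In bulk libraries fewer cells of a type and less RNA per cell cannot be told apart.

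Comparing heterozygous with homozygous cTEC asks how the members stand at a lower transgene dose. Dusp1, Dusp5, Dusp6, Dusp8 and Dusp9 were higher at the lower dose (5 of 10, against 20.9% of genes tested), and Dusp10 and Dusp16 were lower (2 of 10, against 21.9%). In either direction 42.8% of genes were called. The median was 0.31 (log2, heterozygous minus homozygous), against 0 over all genes tested. The ranges of the groups did not overlap for 5 members, as for 54.7% of all genes.

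Dusp1 had the largest difference of the members. It was at 102, 78.9 and 42.1 CPM in the heterozygous libraries and at 12.8, 8.11 and 6.71 CPM in the homozygous libraries. The groups lie far apart, and both varied widely within themselves. The difference was 2.88 ± 0.29 (log2, SE), or 7.38-fold (adjusted p = 3.06e-06), and 2.57 to 3.19 when each library was left out. Dusp8, described above at 0.272 to 0.374 CPM in homozygous and 1.64 to 2.83 CPM in heterozygous cTEC, was higher by 2.67 ± 0.31, or 6.38-fold (adjusted p = 1.03e-05). The homozygous value rests on 6 to 8 counts per library.

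Dusp6 rose less, by 0.47 ± 0.09, or 1.38-fold (adjusted p = 0.000991), with every heterozygous library above every homozygous one. Dusp5 was higher by 1.65 ± 0.50 (adjusted p = 0.0171), but its heterozygous libraries ran from 0.826 to 5.67 CPM and overlapped the homozygous range of 0.856 to 1.12 CPM. Its difference was 1.05 without heterozygous library 1 and 2.13 without library 3, and the call was lost in 3 of 6 such fits. The same 3 heterozygous libraries stand in the same order for Dusp1, Dusp5 and Dusp6, with library 1 highest and library 3 lowest. Dusp9 was higher by 1.90 ± 0.70 (adjusted p = 0.0387), a call lost in 4 of 6 fits that left out a library, with values of 1.35 to 3.88, the highest without homozygous cTEC library 2. It was tested in cTEC only because its mTEC counts passed the filter. Both Dusp5 and Dusp9 missed the threshold without the filter on low counts (adjusted p = 0.0794 and 0.101).

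Dusp16 moved the other way. Its heterozygous libraries held 42.6, 46.0 and 40.9 CPM and its homozygous libraries 65.2, 57.6 and 65.0 CPM, without overlap. The difference was -0.67 ± 0.07, or 1.59-fold lower at the lower dose (adjusted p = 2.56e-06). Dusp10 was lower by -0.30 ± 0.08 (adjusted p = 0.00913) with overlapping ranges. This call was lost without normalization factors (-0.16, adjusted p = 0.133) and without heterozygous library 3 or homozygous library 3. Dusp2 gave -0.10 ± 0.48, Dusp4 0.15 ± 0.12 and Dusp7 -0.14 ± 0.06, none of which passed the test; Dusp7 passed with only these 2 groups in the fit (adjusted p = 0.0443). Leaving out normalization factors moved the median of all genes by 0.11 and the share of calls that are higher from 48.9% to 67.5%.

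Immediate early genes, the first transcripts to respond to growth factor and stress signals, differed in the same libraries. Of 26 tested, 19 were higher in heterozygous cTEC and none lower, with a median of 1.23, among them Egr1 (1.99 ± 0.20, adjusted p = 2.68e-06), Klf4 (3.15 ± 0.30) and Ier5 (1.07 ± 0.10). Their summed level was 1384 to 2273 CPM in homozygous and 4384 to 8180 CPM in heterozygous cTEC. Fibroblast and mesenchymal markers summed to 234 to 275 CPM in homozygous and 625 to 877 CPM in heterozygous cTEC (6 of 10 higher, 1 lower), and thymocyte markers to 79.8 to 120 against 23.5 to 32.6 CPM (15 of 15 lower). The part of these genes and cells in the differences of Dusp1, Dusp5, Dusp6 and Dusp8 was not tested.

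In mTEC the same comparison gave fewer calls among the members. Dusp1 and Dusp6 were higher in heterozygous mTEC (2 of 10, against 28.9% of genes tested), and Dusp2 and Dusp4 were lower (2 of 10, against 30.8%). In either direction 59.7% of genes were called. The median was -0.06, against 0.01 over all genes. The ranges did not overlap for 7 of 10 members, as for 80.1% of all genes, which with 2 libraries per group is a weak criterion.

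Dusp1 again had the largest difference. The homozygous mTEC libraries held 19.0 and 20.2 CPM and the heterozygous libraries 87.4 and 83.5 CPM. These groups are tight and far apart. The difference was 2.15 ± 0.32, or 4.42-fold (adjusted p = 0.00011), and 2.11 to 2.2 when each library was left out. Dusp6 was higher by 0.35 ± 0.12 (adjusted p = 0.0244), a call lost under RLE size factors, in DESeq2, without the filter and in each of the 4 fits that left out a library.

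The lower members are both inducible nuclear enzymes. Dusp2 stood at 5.37 and 6.85 CPM in homozygous mTEC and at 3.25 and 2.08 CPM in heterozygous mTEC. Dusp4, at 197 and 199 CPM against 128 and 139 CPM, was likewise lower in both heterozygous libraries. Their differences were -1.17 ± 0.28 (2.25-fold lower, adjusted p = 0.00278) and -0.55 ± 0.07 (1.46-fold lower, adjusted p = 4.47e-05), and both calls held in every alternative fit run. Markers of macrophages and dendritic cells (7 of 8), B cells (4 of 6) and thymocytes (12 of 15) were mostly lower in heterozygous mTEC too, against 30.8% of all genes tested. Pax5 among the B cell markers (0.92) and Bcl11b among the thymocyte markers (0.33) were higher. Thymocyte markers summed to 115 to 132 CPM in homozygous and 80.1 to 80.4 CPM in heterozygous mTEC. The part of all these markers in the fall of Dusp2 and Dusp4 was not tested.

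The other members did not pass the test in mTEC. Dusp8 gave 0.38 ± 0.18 (adjusted p = 0.0863), Dusp5 0.19 ± 0.43, Dusp9 -0.50 ± 0.35, Dusp7 -0.07 ± 0.08, Dusp10 -0.06 ± 0.10 and Dusp16 -0.05 ± 0.08. Dusp8 passed without heterozygous mTEC library 1 (0.56, adjusted p = 0.0475) and with only these 2 groups in the fit (0.37, adjusted p = 0.0436). Under RLE size factors the median of all genes moved by -0.13 and the share of calls that are higher from 48.4% to 35.6%, so differences of the size of Dusp6 depend on the scaling. Immediate early genes were again mostly higher, 15 of 26, with 3 lower and a median of 0.79, and summed to 1420 to 1528 CPM in homozygous and 3073 to 3217 CPM in heterozygous mTEC.

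An interaction term asked directly whether the dose difference was the same in both compartments. It is given as the mTEC dose difference minus the cTEC dose difference, and 3 members were lower (17.2% of genes tested) and 1 higher (25.2%), where 42.5% of genes were called in either direction. Dusp8 gave -2.30 ± 0.37 (adjusted p = 0.000257), since its dose difference was 2.67 in cTEC and 0.38 in mTEC. Dusp4 gave -0.70 ± 0.14 (adjusted p = 0.00142), with 0.15 in cTEC and -0.55 in mTEC. Dusp16 gave 0.62 ± 0.10 (adjusted p = 0.000307), with -0.67 in cTEC and -0.05 in mTEC. These 3 terms stayed past the threshold in every alternative fit run.

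Dusp9 gave -2.40 ± 0.78 (adjusted p = 0.0227), with 1.90 in cTEC and -0.50 in mTEC. This call was lost without the filter on low counts (adjusted p = 0.0642) and in 6 of 10 fits that left out a library, and the value reached -4.38 without homozygous cTEC library 2. Here too Dusp9 passed the filter through its mTEC counts. Dusp1 gave -0.74 ± 0.43 (adjusted p = 0.193), so its larger dose difference in cTEC than in mTEC did not pass the test. Dusp5 gave -1.46 ± 0.67 (adjusted p = 0.0985), Dusp2 -1.08 ± 0.56 (adjusted p = 0.143), Dusp10 0.23 ± 0.13, Dusp6 -0.11 ± 0.15 and Dusp7 0.07 ± 0.11. Without heterozygous cTEC library 3 the terms of Dusp1 (-1.05, adjusted p = 0.00583), Dusp2 (-1.46, adjusted p = 0.0362) and Dusp5 (-1.95, adjusted p = 0.000247) passed. Over all genes 59.4% of the interaction calls were higher, against 46.4% under RLE size factors and 43% without factors, with the median moved by -0.13 and -0.16.

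**Figure D3:**
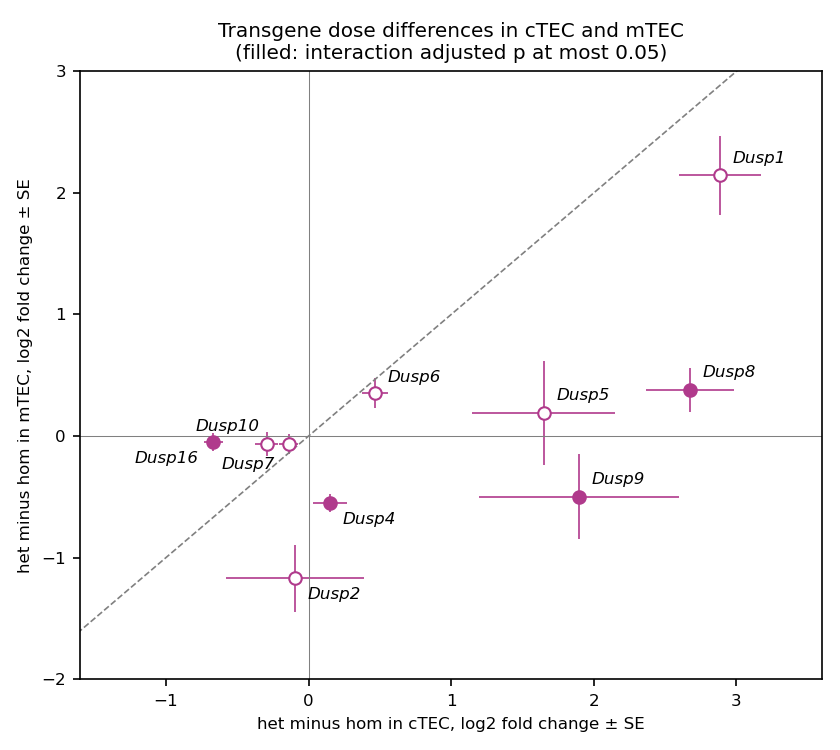
Dose difference in mTEC (vertical axis) against the dose difference in cTEC (horizontal axis), each as heterozygous minus homozygous log2 fold change ± SE, for the 10 members; the dashed line marks equal differences, and filled points have an interaction adjusted p of at most 0.05. Dusp8 lies at 2.67 in cTEC and 0.38 in mTEC, and Dusp1 lies nearer the dashed line at 2.88 and 2.15.

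Deleting Foxn1 for 72 hours asks what happens when Foxn1 function is lost acutely in cTEC. In the comparison of the groups as a whole none of the 9 members tested was called higher (0.282% of 15224 genes tested were) or lower (1.69%; 1.97% in either direction), and Dusp9 was too low to be tested. At an unadjusted p under 0.05 there were 4 members, Dusp1, Dusp8, Dusp10 and Dusp16 (4 of 9, against 19.3% of all genes tested), and DESeq2 called Dusp16 lower (-0.46, adjusted p = 0.041). The members' median was 0.17 (log2, deleted minus control), against 0.01 over all genes.

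Libraries of the same number deviated together in the 2 groups, with correlations of 0.108 to 0.768 over genes, so the numbers were treated as pairs and a second fit held the number as a block. With that block 2 members were higher (2.61% of genes tested) and 2 lower (5.4%; 8.01% in either direction). The numbers come from the column names alone, and control library 3 correlated more with deleted library 5 (0.315) than with deleted library 3 (0.108). Deleted library 3 in turn correlated more with control libraries 1 (0.217) and 4 (0.155) than with control library 3. Member calls made with the block rest on this pairing.

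Dusp1 was at 229, 132, 258, 193 and 91.8 CPM in control libraries 1 to 5 and at 387, 165, 430, 398 and 273 CPM in deleted libraries 1 to 5. It was higher in the deleted library of all 5 numbers, although the ranges of the groups overlap. The share of all genes that keep 1 direction in all 5 numbers was not counted. For Dusp1, Dusp10, Dusp4 and Dusp16 such agreement is therefore only a description. The difference was 0.85 ± 0.32 (adjusted p = 0.182) without the block and 0.86 ± 0.15 (adjusted p = 0.0239) with it. Dusp10 was at 41.5, 55.8, 47.2, 39.3 and 33.3 CPM in control and at 53.9, 66.9, 63.9, 59.1 and 50.6 CPM in deleted libraries, again higher in 5 of 5 numbers. The difference was 0.42 ± 0.13 (adjusted p = 0.116) without and 0.43 ± 0.06 (adjusted p = 0.0155) with the block.

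Dusp4 and Dusp16 were lower in the deleted library of all 5 numbers. Dusp4 was at 15.5, 4.97, 14.5, 6.12 and 21.4 CPM in control and at 9.18, 2.97, 9.24, 4.0 and 9.99 CPM in deleted libraries. Libraries 2 and 4 are low and libraries 1, 3 and 5 high in both groups. The difference was -0.86 ± 0.47 (adjusted p = 0.344) without and -0.80 ± 0.12 (adjusted p = 0.0159) with the block. Dusp16 was at 76.1, 70.7, 64.9, 61.8 and 97.4 CPM in control and at 55.6, 60.4, 56.7, 47.6 and 54.9 CPM in deleted libraries, the only member whose groups did not overlap (5.94% of all genes). The difference was -0.46 ± 0.13 (adjusted p = 0.105) without and -0.44 ± 0.10 (adjusted p = 0.0471) with the block.

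The other members tested did not pass in either fit. Dusp8 averaged 2.39 ± 1.58 CPM in control and 4.99 ± 1.81 CPM in deleted cTEC (SD, n = 5 each) and was higher in 4 of 5 numbers, with 1.05 ± 0.45 (adjusted p = 0.237) without and 1.19 ± 0.31 (adjusted p = 0.0569) with the block. Dusp5 spread from 6.38 to 50.8 CPM in control and from 5.93 to 78.4 CPM in deleted cTEC, with 0.74 ± 0.67 (adjusted p = 0.576) and 0.67 ± 0.17 (adjusted p = 0.0526). Dusp6 gave 0.17 ± 0.24, Dusp2 -0.30 ± 0.54 and Dusp7 -0.11 ± 0.11 without the block.

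**Figure D4:**
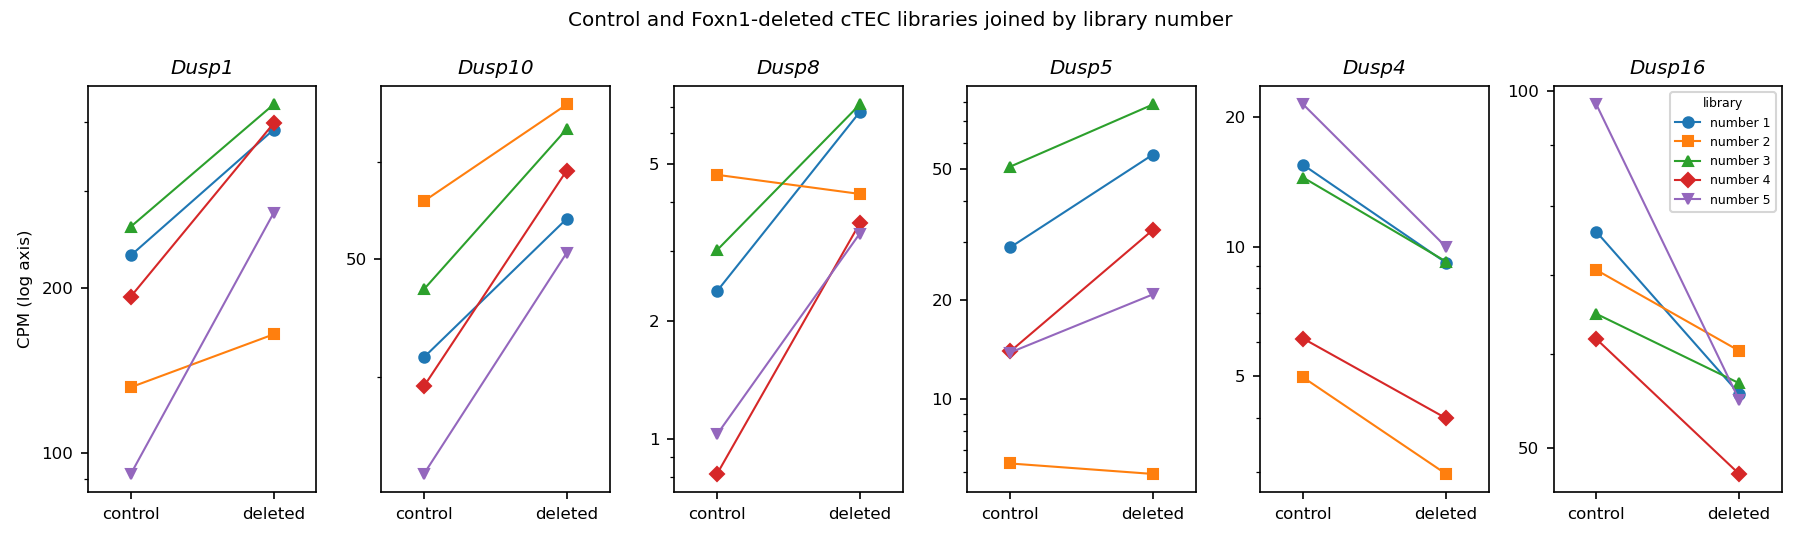
CPM (logarithmic vertical axes, own scale for each gene) of 6 members in control and deleted cTEC, with lines joining libraries of the same number. Dusp1 and Dusp10 rise along all 5 lines, Dusp4 and Dusp16 fall along all 5, and Dusp8 and Dusp5 rise along 4 of 5. The share of all genes that rise or fall along every line was not counted.

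The libraries of the deletion set differed widely among themselves in the immediate early genes too. These summed to 7047 to 16602 CPM in control and 7276 to 22386 CPM in deleted cTEC, a range that meets only that of heterozygous cTEC in the transgenic set, and none of the 26 was called without the block, against 11 higher and none lower with it. Fibroblast and mesenchymal markers summed to 697 to 1597 CPM in control and 1843 to 2613 CPM in deleted cTEC without overlap, with 0 of 10 called without the block and 2 higher and 1 lower with it. Thymocyte markers summed to 487, 86.0, 449, 215 and 573 CPM in control libraries 1 to 5 and to 242, 83.1, 208, 190 and 462 CPM in deleted libraries 1 to 5. They were lower in the deleted library of all 5 numbers, as Dusp4 and Dusp16 were, and control libraries 2 and 4 were low for Dusp4 and for these markers alike. Deleted libraries 3 and 4 lay close together in the markers and apart in Dusp4 (9.24 and 4.0 CPM). For Dusp16 control library 2 was not low, at 70.7 CPM against 64.9 CPM in control library 3. Of 14 thymocyte markers tested none was called without the block (median -0.81), and 3 were lower with it. The part of these genes and cells in the values of Dusp1, Dusp4, Dusp10 and Dusp16 was not tested. The mean levels of Dusp1, Dusp5, Dusp6 and Dusp10 were higher in both groups of the deletion set than in any group of the transgenic set, and since the sets differ in genotype and doxycycline these causes cannot be told apart.

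The remaining genes of the pathway were taken from 10 lists of 117 genes, 116 of them in the table. For the counts that follow, the shares of all genes tested were 20.9% higher and 21.9% lower in heterozygous cTEC. The shares were 28.9% and 30.8% in heterozygous mTEC, and 43.2% and 39.4% in homozygous mTEC against cTEC. Of all interaction terms 25.2% were called higher and 17.2% lower. In the deletion comparison 1.97% of genes were called without the block and 8.01% with it. Among the MAP kinases 4 of 10 were higher and 3 lower in heterozygous cTEC, where Mapk13 (p38 delta) was higher by 1.19 ± 0.09 (adjusted p = 2.91e-07) and Mapk9 (a JNK) lower by -0.29 ± 0.06 (adjusted p = 0.00104). Mapk13 was also higher in mTEC than in cTEC, by 3.10 ± 0.10 in homozygous and 2.32 ± 0.09 in heterozygous animals. Of the 7 MAP kinase kinases 6 were lower in homozygous mTEC than cTEC and 1 higher. Map2k1, which phosphorylates ERK, was lower in mTEC (-1.79 ± 0.08), lower at the lower dose in cTEC (-0.68 ± 0.07, adjusted p = 4.04e-06) and the only gene of these 10 lists called in the deletion comparison without the block (-0.73 ± 0.13, adjusted p = 0.0228). With the block Map2k1 passed too (adjusted p = 0.0152), beside 11 immediate early genes and 6 others: Map3k8 (0.44) and Ets2 (0.33) were higher, and Fgf21 (-0.91), Etv5 (-0.70), Ptpn7 (-1.35) and Dusp28 (-1.03) lower. RAS, RAF and MAP3 kinase genes gave 1 higher and 3 lower of 16 in heterozygous cTEC and 6 higher and 4 lower of 16 in heterozygous mTEC.

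Receptors and ligands upstream of ERK had medians of 3.48 (EGF family) and 3.96 (FGF) in homozygous mTEC against cTEC. Of 11 EGF family genes 9 were higher and 1 lower in homozygous mTEC, with Erbb3 higher by 5.94 ± 0.15 and Egfr lower by -1.93 ± 0.10. Of 8 FGF genes tested 6 were higher and 2 lower, the latter being the receptors Fgfr1 (-0.59 ± 0.17) and Fgfr2 (-1.50 ± 0.11). In heterozygous cTEC 6 of 11 EGF family and 4 of 8 FGF genes were higher, with Fgfr1 at 2.51 ± 0.12 (adjusted p = 4.26e-09), and 1 FGF gene was lower. In mTEC the EGF family went the other way, with 8 of 11 lower and 1 higher at the lower dose, among them Areg (-2.96 ± 0.29, adjusted p = 9.77e-06) and Epgn (-2.95 ± 0.30, adjusted p = 4.7e-06). The interaction was lower for 7 of the 11 and higher for none. Downstream readouts of ERK did not move in 1 direction at the lower dose in cTEC. Of 8 ETS factors 4 were lower, among them Etv1 (-1.33 ± 0.14), Etv4 (-0.51 ± 0.09) and Etv5 (-0.78 ± 0.07), and 1 was higher, Elk3 (0.84 ± 0.08). Of 10 other feedback regulators of ERK 5 were higher beside Dusp6, among them Spry2 (0.67 ± 0.07) and Spred3 (2.37 ± 0.25). The 2 lower ones were Dab2ip (-0.34 ± 0.05) and Lrig1 (-0.27 ± 0.07). Between compartments Dusp6, Spry1 (-2.31 ± 0.09), Etv4 (-2.25 ± 0.12) and Etv5 (-3.22 ± 0.10) were all lower in homozygous mTEC, and Etv1 was higher (1.01 ± 0.13).

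The atypical dual-specificity phosphatases, small relatives without the MAP kinase binding domain, gave 1 higher and 6 lower of 14 tested in heterozygous cTEC and 6 lower of 14 in heterozygous mTEC. Dusp14 was lower at the lower dose in both compartments, by -0.70 ± 0.09 and -1.15 ± 0.11. Among the MAP kinase-directed tyrosine phosphatases Ptpn7 was lower in heterozygous cTEC (-3.15 ± 0.26), where it rested on 6 to 10 counts per library.

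For each member tested in both sets, the 3 genes of highest Pearson r on log2(CPM + 1) were sought over the 20 libraries among 12472 genes tested in both sets, as a description of libraries that share genotype and preparation within groups. Dusp1 was most like Egr2 (r = 0.98), Atf3 (0.97) and Sirt3 (0.94), the first 2 of them immediate early genes. Dusp5 was most like Nfkbiz (0.96), Ppp1r15a (0.95) and Thbs1 (0.94). Dusp4 was most like Elf4 (0.99), Irf4 (0.98) and Sh3tc2 (0.98), and Dusp2 like Gpx3 (0.97), Gpr132 (0.96) and Nckap1l (0.95). Dusp16 was most like Cd40 (0.95), Npsr1 (0.93) and Stx7 (0.92). Dusp7 had Foxn1 itself second in its order (0.92), between Tspan12 (0.92) and Fam207a (0.91). Dusp6 was most like Trp53i13 (0.96), Sesn1 (0.96) and Mzt2 (0.95), Dusp8 like Serpini1 (0.95), Arhgef28 (0.94) and Ppp1r18 (0.94), and Dusp10 like Mppe1 (0.94), Myh9 (0.90) and Col4a1 (0.88). The members did not share a single pattern, since r between pairs of them ran from -0.87 for Dusp6 with Dusp9 to 0.86 for Dusp1 with Dusp5.

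**Figure D5:**
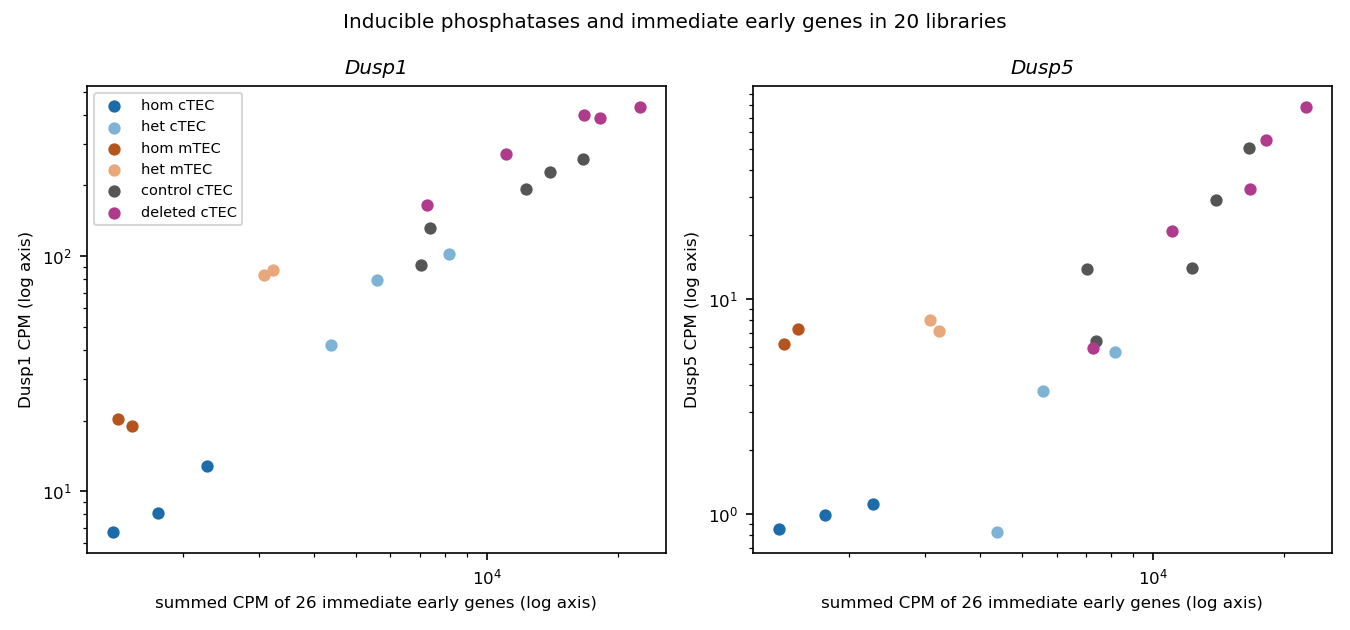
CPM of Dusp1 and Dusp5 (vertical axes, logarithmic) against the summed CPM of 26 immediate early genes (horizontal axes, logarithmic) in the 20 libraries, colored by group. The homozygous libraries of both compartments lie at the left, at 1384 to 2273 CPM on the horizontal axis, and the deletion set at the right, at 7047 to 22386 CPM.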

How the data were processed

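Counts per gene symbol were used as deposited by the authors, as whole numbers that were not normalized. Per the submitters' processing notes, which give no order or role, the series used featureCounts, TopHat2 2.0.10 and Bowtie2 2.2.3, among other tools, with builds mm10 and GRCm38. Neither annotation nor strand setting of the counting was stated there, so antisense or overlapping transcripts cannot be told apart from a member. Chromatin samples of the series were not analysed here.

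Differences were tested with edgeR 4.0.16 under R 4.3.3 (quasi-likelihood, 2-sided, TMM factors, filterByExpr with a minimum count of 10 and total of 15, prior count 0.125) and adjusted by Benjamini-Hochberg over all genes tested, with a threshold of 0.05. The deletion set was fitted on its own 10 libraries and the 4 transgenic groups in a single fit. The SE of a log2 fold change was derived from the unshrunken coefficient and its F statistic. Alternatives were RLE size factors, no factors, no filter, DESeq2 1.42.0, a replicate block, each library left out and fits of only the 2 groups compared. Same-numbered control and deleted libraries correlated at 0.653, 0.768, 0.108, 0.431 and 0.505 in their deviations from the group means over genes, each above 0.1. Control library 3, however, correlated more with deleted library 5 (0.315), and deleted library 3 more with control libraries 1 (0.217) and 4 (0.155). The pairing rests on this check and on the numbers in the column names, not on a stated design. Replicate libraries differed by more than counting noise, with a chi-square per gene of 3.87 or more for every pair. The fits were first tested on simulated data. Promoter windows and positions are from RefSeq (GRCm38.p6), matched by symbol.

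All members were named in every comparison, together with up to 3 called genes of smallest adjusted p per direction of each pathway list, the 3 genes most like each member (mean CPM of at least 2, no predicted genes), and Foxn1. From these, examples were printed, TEC markers were added to check the labels, and 6 pathway genes called only with the replicate block were named after their values were seen. Members and lists were chosen with earlier results of these data known.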

Additional observations from a re-analysis of the deposited data

Results flagged for a closer look

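The dose difference between heterozygous and homozygous transgenic animals differed between mTEC and cTEC, by the interaction term of the edgeR fit, for 4 members. The term (mTEC minus cTEC, log2) was -0.70 for Dusp4, -2.30 for Dusp8, -2.40 for Dusp9 and 0.62 for Dusp16, with adjusted p of 0.00142, 0.000257, 0.0227 and 0.000307. For Dusp8 and Dusp9 the difference lay in cTEC, where Dusp8 was at 0.326 CPM in homozygous and 2.32 CPM in heterozygous libraries and Dusp9 at 0.106 and 0.460 CPM. For Dusp4 it lay in mTEC, at 198 and 133 CPM, and for Dusp16 in cTEC, at 62.6 and 43.2 CPM. Of all genes tested 42.5% had such a call. No library stood apart from its group in the 20 member-group sets of the deletion comparison that were checked, and groups of 3 or 2 libraries were not checked.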

How the results depend on the processing

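Among the members, Dusp1, Dusp6, Dusp8 and Dusp16 in the cTEC dose comparison, Dusp1, Dusp2 and Dusp4 in mTEC, Dusp2, Dusp4, Dusp6, Dusp7, Dusp8, Dusp9 and Dusp16 between compartments of both genotypes, Dusp5 and Dusp10 between homozygous compartments, and the interactions of Dusp4, Dusp8 and Dusp16 kept direction and call under every alternative run. In the deletion comparison DESeq2 called 1064 genes, with 1 member lower, and the replicate block 1220 genes, with 2 members higher and 2 lower, against 300 genes and no member. Leaving out a library gave 27 to 920 genes, with 0 to 1 members higher and 0 to 1 lower. The members higher in the mTEC dose comparison numbered 1 under RLE size factors, without the filter and in DESeq2, and 1 to 2 with a library left out. In the cTEC dose comparison 1 member was lower without factors, 3 were higher without the filter, and leaving out a library gave 3 to 5 higher and 1 to 2 lower. The interaction gave 5 lower members with the replicate block, Dusp1 (-0.71, adjusted p = 0.0125) and Dusp5 (-1.37, adjusted p = 0.0259) being added, and 2 to 6 with a library left out. The transgenic numbers were not taken as pairs: same-numbered libraries of the genotypes correlated at 0.061 to 0.166 in cTEC, where number 3 misses 0.1, and at 0.183 in mTEC, where 2 libraries per group give both numbers the same value, and those of cTEC and mTEC at -0.118 to 0.0321. The block changed 1 other member call there, Dusp10 between heterozygous compartments (adjusted p = 0.0594). Values that changed sign were not called in either fit. They were the interaction of Dusp7 (-0.0534 under RLE, -0.0493 in DESeq2, -0.0837 without factors, -0.0213 to 0.186 with a library left out) and of Dusp6 (-0.245 to 0.00723 with a library left out), Dusp2 in the cTEC dose comparison (0.0353 without factors, -0.513 to 0.283 with a library left out) and in the deletion (-0.536 to 0.0205), Dusp1 between heterozygous compartments (-0.118 with the block, -0.105 to 0.426 with a library left out), and in the mTEC dose comparison Dusp16 (-0.103 to 0.0112) and Dusp7 (-0.162 to 0.0449). The cause of these changes was not tested. Dusp9, Dusp8 in homozygous cTEC and Dusp2 in cTEC rest on fewer than 20 counts in some libraries, where counting error limits what can be seen.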
